A study of Mus musculus with 16 samples.

Results

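The AP-1 transcription factors were followed here as 10 genes: the FOS family (Fos, Fosb, Fosl1 and Fosl2), the JUN family (Jun, Junb and Jund), and Batf, Batf3 and Atf3. They were taken by symbol alone, and each symbol matched 1 row of the deposited table, so that they were 10 of 47069 gene rows. The samples were macrophages (BMMs) cultured from the bone marrow of C57BL/6 mice aged 8 to 10 weeks, grown for 7 days with L929-conditioned medium and primed with IFNγ (10 ng/mL). All of them were activated with LPS (100 ng/mL) and IgG-opsonized ovalbumin (LPS/ICs), and RNA was taken at 1 hr. The GSI group received DAPT (25 μM), a γ-secretase inhibitor (GSI) that blocks the cleavage of Notch receptors and of other membrane proteins. The DMSO group received the vehicle (0.01%), and the methods of the study give an overnight incubation with either before activation. Some figure legends of the study give a shorter time for its protein blots. Each group held 2 replicates, and the labels do not say from which mice or cultures they came, so the p-values measure only the spread between these libraries. Both groups were activated, so the response of a gene to LPS/ICs itself could not be read from this comparison, which asks what the GSI changed in activated cells.

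AP-1 is a family of dimers of basic leucine zipper (bZIP) proteins. FOS proteins bind DNA only as partners of JUN proteins, whereas JUN proteins can also pair with each other. Many members are immediate early genes: they are transcribed within minutes of a stimulus through SRF, CREB and MAP kinase signaling, without the need for new protein. In macrophages, Toll-like receptors and Fcγ receptors both feed into this system, and AP-1 dimers act at cytokine, protease and growth genes beside NF-κB.

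The 4 libraries held 42694655 to 56932059 counts, and all 10 members passed the filter on low counts. Values are CPM (counts divided by the TMM-scaled library size), and a change is the log2 fold change of GSI against DMSO from edgeR's quasi-likelihood test, with its standard error (SE) and its p-value adjusted over all 13211 tested genes by the Benjamini-Hochberg method (FDR). A gene was called at an FDR under 0.05. Each library was summed from 4 columns of the table. Over the 40 combinations of a member and a library, 0 had a chi-square p under 0.05 between these columns, and the statistic per degree of freedom was 0.135 to 2.48. The 8 macrophage markers were all expressed, with a summed level of 12278 and 12485 CPM with DMSO, against 9489 and 10414 CPM with GSI, and 6 of them were lower and 1 (Mertk) higher with GSI. Markers of neutrophils, T or NK cells, B cells and fibroblasts summed to between 0.124 and 1.30 CPM in every library. The Notch target genes Hes1, Hey1, Nrarp and Dtx1 had at most 5 counts in any library and were not tested. The study itself reported less Hes1 with GSI by qPCR, and no cleaved Notch1 with GSI by Western blot.

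Of the 10 members, 7 were called, 5 lower (Fosb, Fosl2, Batf3, Fos and Atf3) and 2 higher (Batf and Jund) with GSI. The calls of Fos, Atf3 and Jund were not stable when 1 library was left out, as described below. Among all tested genes, 40.8% were called, 21.9% lower and 19.0% higher. The median log2 fold change of the members was -0.19, against 0.015 over all tested genes. Fosb was the 1 member with an absolute log2 fold change above 1.5, the cut-off used in the study, and 2.91% of tested genes passed that cut-off with an FDR under 0.05, 2.17% as lower. The GSI and DMSO libraries did not overlap for 9 members, Jun being the exception, and did not overlap for 70.6% of all tested genes. In a bulk sample, fewer cells that express a gene and less RNA of it per cell cannot be told apart.

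**Figure D1:**
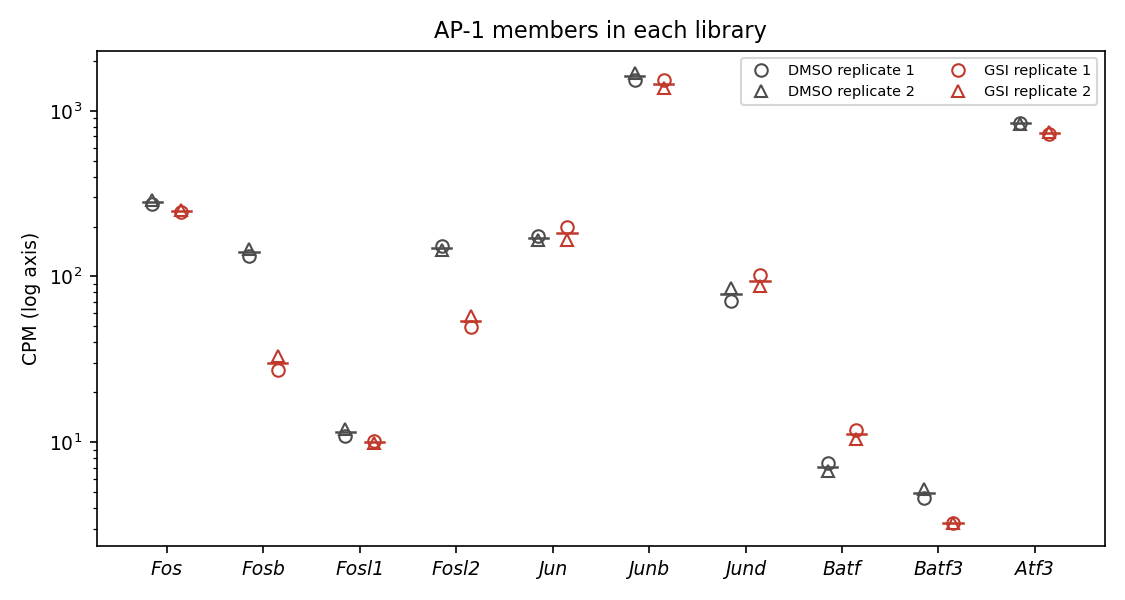
The level of each AP-1 member in CPM (log axis) in the 4 libraries. Points are single libraries and bars are group means (n = 2). Fosb and Fosl2 show the widest gaps between the groups, while the points of Jun overlap.

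**Figure D2:**
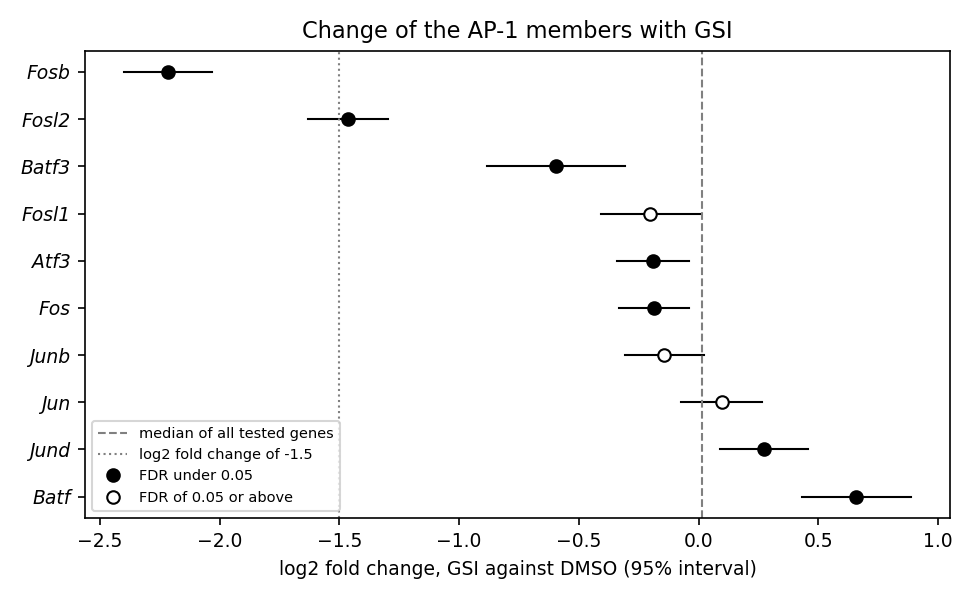
Log2 fold change of each member with GSI, with its 95% interval from the fit over all genes. Filled points have an FDR under 0.05, the dashed line marks the median of all tested genes, and the dotted line marks -1.5. Fosb lies at -2.21 and Fosl2 at -1.46, and the other 8 members lie between -0.60 and 0.66.

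Within the FOS family, Fosb and Fosl2 fell strongly and Fos by little. Fosb encodes FOSB, an immediate early partner of JUN proteins that also has a shorter splice form, which counts per gene do not separate. It lies on the minus strand of chromosome 7 (19302696 to 19310051 of GRCm38). Its level was 134 and 145 CPM in the DMSO libraries and 27.1 and 33.0 CPM in the GSI libraries. Both GSI libraries were far below both DMSO libraries, and the group means were 139.5 ± 8.32 CPM (SD, n = 2) and 30.1 ± 4.15 CPM (SD, n = 2). The log2 fold change of Fosb was -2.21 (SE 0.0880, FDR = 2.34e-13 in edgeR's quasi-likelihood test). Of all tested genes, 1.12% were called with a decrease as large as that of Fosb or larger.

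Fosl2 encodes FRA-2, a FOS protein without the strong activation domain of FOS and FOSB, and lies on chromosome 5 (32135801 to 32157842). Its level was 153 and 144 CPM with DMSO, against 49.9 and 57.9 CPM with GSI, so that the groups were again well apart. The log2 fold change of Fosl2 was -1.46 (SE 0.0796, FDR = 2.48e-11 in the same test), just short of the cut-off of 1.5. Of all tested genes, 2.23% were called with a decrease as large as that of Fosl2 or larger. Leaving out 1 library at a time gave changes between -1.58 and -1.36. For Fosb these fits gave -2.36 to -2.08. Both calls held in each of the 4 fits without 1 library and in the test against a 1.5-fold change.

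Fos, the founding immediate early gene of the family, lies on chromosome 12 (85473890 to 85477273). It was measured at 274 and 291 CPM with DMSO, against 244 and 252 CPM with GSI. The GSI libraries were lower than the DMSO libraries by a small margin, with a log2 fold change of -0.19 (SE 0.0702, FDR = 0.0378 in the same test). This call was lost in 3 of the 4 fits without 1 library (FDR = 0.063 without DMSO replicate 1, 0.265 without DMSO replicate 2 and 0.11 without GSI replicate 1) and without the filter on low counts (FDR = 0.0538). The 95% interval of the change of Fos, -0.33 to -0.041, lay apart from those of Fosb (-2.40 to -2.03) and Fosl2 (-1.63 to -1.30).

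Fosl1 encodes FRA-1, which in many cells is made later than FOS because its gene is itself switched on by AP-1. Per kb of the longest annotated transcript, it had the lowest level of the FOS genes in each group. By the length of all annotated exons, its mean with GSI (4.92 CPM per kb) was just above that of Fosb (4.82). Fosl1 was at 10.9 and 12.0 CPM with DMSO, against 10.2 and 9.86 CPM with GSI. Its log2 fold change of -0.20 (95% interval -0.41 to 0.0059, FDR = 0.112 in the same test) did not pass the threshold. Exons of Ccdc85b on the other strand share 1163 bases with Fosl1. Ccdc85b had 63 to 125 counts per library, and Fosl1 471 to 682.

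The shift within the family could also be read inside each library, where scaling between libraries plays no part. Per 100 counts of Fos there were 48.8 and 49.997 counts of Fosb with DMSO, against 11.1 and 13.1 with GSI. For Fosl2 the numbers were 56.0 and 49.6 with DMSO, against 20.5 and 23.0 with GSI. On a scale of CPM per kb of the longest annotated transcript, which allows genes to be compared, Fos made up 66.8% and 67.3% of the summed FOS family level with DMSO, against 85.1% and 83.9% with GSI. The share of Fosb was 18.2% and 18.8% with DMSO, against 5.28% and 6.13% with GSI, and that of Fosl2 was 12.1% and 10.8% with DMSO, against 5.61% and 6.23% with GSI. The summed FOS family level was 194.5 and 204.9 CPM per kb with DMSO, against 135.9 and 142.3 CPM per kb with GSI. These shares are descriptions and were not tested.

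**Figure D3:**
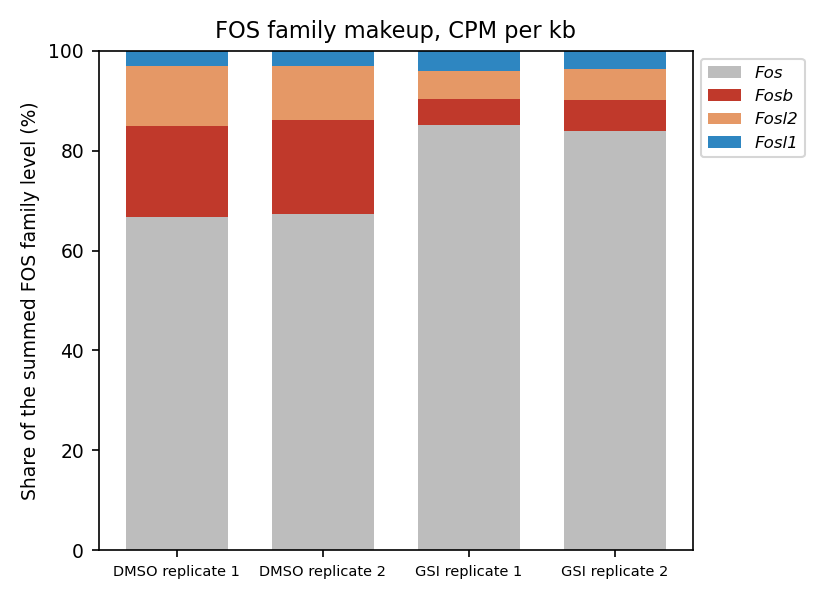
Makeup of the FOS family in each library, as the share of each gene in the summed level in CPM per kb of the longest transcript. The segments of Fosb and Fosl2 are smaller in both GSI libraries, and the share of Fos is 66.8% and 67.3% with DMSO, against 85.1% and 83.9% with GSI.

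The promoters of the strongest decreases (Fosb and Fosl2), of a family member with a smaller decrease (Fos) and of the member with the largest increase (Batf) are shown to let their start sites be compared. RefSeq sequences were found for 9 of the 10 members (all but Fosl1), from 250 bases before to 50 bases after the start. The RefSeq start lay within 51 bases of the GENCODE gene start for Fos, Fosb, Jun, Junb and Batf. It lay 567 bases inside the gene for Batf3, 671 for Fosl2 and 34706 for Atf3, and 1210 bases upstream of it for Jund, so the windows of these 4 genes may not cover the starts used in these cells. The sequences are given on GRCm38.p6, 5′ to 3′ on the strand of the gene. Capitals mark TGACG, the core of the CREB/ATF site, TGGGAA, the core of the RBPJ site, and the NF-κB motif with free central positions, each on either strand.
Fosb, chr7:19309996-19310295, minus strand: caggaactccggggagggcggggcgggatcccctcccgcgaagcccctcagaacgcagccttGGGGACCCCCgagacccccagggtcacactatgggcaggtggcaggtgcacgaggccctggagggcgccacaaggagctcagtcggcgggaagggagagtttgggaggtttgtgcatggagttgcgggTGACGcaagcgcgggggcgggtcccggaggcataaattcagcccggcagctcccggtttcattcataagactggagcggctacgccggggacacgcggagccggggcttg
Fosl2, chr5:32136222-32136521, plus strand: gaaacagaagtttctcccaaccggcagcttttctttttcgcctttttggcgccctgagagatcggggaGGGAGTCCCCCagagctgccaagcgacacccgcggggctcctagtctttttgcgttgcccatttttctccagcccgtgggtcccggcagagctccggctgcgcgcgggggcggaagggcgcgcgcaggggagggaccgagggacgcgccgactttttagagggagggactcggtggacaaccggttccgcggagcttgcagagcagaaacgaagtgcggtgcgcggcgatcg
Fos, chr12:85473640-85473939, plus strand: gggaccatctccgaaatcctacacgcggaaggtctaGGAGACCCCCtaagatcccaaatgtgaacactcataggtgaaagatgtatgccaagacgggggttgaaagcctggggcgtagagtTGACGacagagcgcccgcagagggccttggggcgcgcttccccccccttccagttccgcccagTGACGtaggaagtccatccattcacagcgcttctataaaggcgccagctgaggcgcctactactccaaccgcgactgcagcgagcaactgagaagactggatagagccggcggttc
Batf, chr12:85686470-85686769, plus strand: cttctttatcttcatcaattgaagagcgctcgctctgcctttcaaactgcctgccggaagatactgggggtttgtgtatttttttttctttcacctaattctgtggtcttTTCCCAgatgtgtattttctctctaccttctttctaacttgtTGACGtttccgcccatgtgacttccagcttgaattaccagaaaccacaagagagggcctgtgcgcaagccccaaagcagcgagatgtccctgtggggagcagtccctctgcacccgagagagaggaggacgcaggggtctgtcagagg

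TGACG was found in 5 of the 9 member promoters (Fos, Fosb, Junb, Batf and Atf3) and in 20.8% of all 32851 promoter sequences of this length. It lies at -60 to -56 from the start in Fosb, and in Fos it lies at both -129 to -125 and -66 to -62. The NF-κB motif was found in the windows of Fos, Fosb and Fosl2 and in 8.46% of all promoters, with no overlap with TGACG. The RBPJ core TGGGAA was found in those of Jun and Batf, in the upstream window of Jund, and in 25.6% of all promoters. The AP-1 site TGANTCA, present in 7.81% of all promoters, and the CArG box of SRF, present in 1.63%, were in 0 of the 9 windows. Only this form of the AP-1 site was searched, and the Jun window holds the longer TGACATCA. A match is only a run of letters, and the absence of one concerns only these windows.

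In the JUN family, Junb had the highest level per kb of all members, and 1 of the 3 genes, Jund, was called. Junb encodes JUNB, a JUN protein induced early and a weaker activator than JUN on its own, and lies on chromosome 8 (84974484 to 84978718). Its level was 1539 and 1684 CPM with DMSO, against 1537 and 1380 CPM with GSI, so that GSI replicate 1 lay next to DMSO replicate 1. The log2 fold change of Junb was -0.14 (95% interval -0.31 to 0.021, FDR = 0.154 in edgeR's quasi-likelihood test), and it was called without GSI replicate 1 (FDR = 0.0356). Exons of Prdx2 on the other strand share 173 bases with Junb. Prdx2 had 8023 to 11692 counts per library, and Junb 66229 to 95570.

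Jun encodes JUN, the main partner of FOS and a target of JNK, and is a gene without introns on chromosome 4 (95049034 to 95052222). It was at 175 and 167 CPM with DMSO, against 199 and 166 CPM with GSI. The groups overlapped, and the log2 fold change was 0.096 (95% interval -0.072 to 0.26, FDR = 0.365 in the same test). GSI replicate 1 decided its size: the change was -0.041 without GSI replicate 1 and 0.22 without GSI replicate 2, where it was called (FDR = 0.0248). Exons of the antisense gene Junos share 232 bases with Jun, and Junos had 33 to 48 counts.

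Jund encodes JUND, which is present in resting cells and depends less on stimulation than the other JUN genes, and lies on chromosome 8 (70698949 to 70700616). It rose from 71.0 and 85.3 CPM with DMSO to 101.6 and 87.2 CPM with GSI. The groups were separated only by the gap between DMSO replicate 2 and GSI replicate 2, with a log2 fold change of 0.27 (SE 0.0881, FDR = 0.0181 in the same test). Without DMSO replicate 1 the change was 0.15 (FDR = 0.282), and without GSI replicate 1 it was 0.16 (FDR = 0.144), so the call rested on these libraries. All 3 JUN genes were higher in GSI replicate 1 than in GSI replicate 2. Exons of the antisense gene Gm11175 share 877 bases with Jund, and Gm11175 had 23 and 57 counts with DMSO, against 35 and 6 counts with GSI, against 3054 to 4911 counts of Jund. On the scale of CPM per kb, Junb made up 89.7% and 90.0% of the summed JUN family level with DMSO, against 87.3% and 88.0% with GSI.

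Batf rose and Batf3 fell, both from low levels. BATF proteins are bZIP proteins without an activation domain of their own that pair with JUN proteins and with IRF4 or IRF8. Batf lies on chromosome 12 (85686669 to 85709087). It had 321 and 379 counts with DMSO, against 571 and 516 counts with GSI, or 7.46 and 6.68 CPM against 11.8 and 10.4 CPM. Both GSI libraries were above both DMSO libraries, with a log2 fold change of 0.66 (SE 0.109, FDR = 6.28e-05 in edgeR's quasi-likelihood test). Fits that left out 1 library gave 0.57 to 0.74.

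Batf3, known for its role in the development of cross-presenting dendritic cells, lies on chromosome 1 (191097847 to 191108945). It had 197 and 296 counts with DMSO, against 158 and 160 counts with GSI, or 4.58 and 5.22 CPM against 3.27 and 3.24 CPM. The GSI libraries were below the DMSO libraries, with a log2 fold change of -0.60 (SE 0.138, FDR = 0.00166 in the same test) and a range of -0.68 to -0.49 without 1 library. Per 100 counts of Batf3 there were 163 and 128 counts of Batf with DMSO, against 361 and 322 with GSI. The 7 dendritic cell markers summed to 186 and 179 CPM with DMSO, against 113 and 115 CPM with GSI, and 2 of them, Clec9a (log2 fold change -0.69) and Xcr1 (-0.42), were called lower. Clec9a alone was at 181 and 174 CPM with DMSO, against 109 and 111 CPM with GSI. Siglech and Cd209a had 0 counts, Flt3 had at most 2, and Zbtb46 had 10 to 19. The part of such cells in the change of Batf3 was not tested.

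Atf3 encodes ATF3, a stress and LPS-induced bZIP repressor of inflammatory cytokine genes, and lies on chromosome 1 (191170296 to 191218039). Its level was 845 and 834 CPM with DMSO, against 728 and 744 CPM with GSI. Each GSI library was lower than each DMSO library, with a log2 fold change of -0.19 (SE 0.0717, FDR = 0.0398 in the same test). Fits on 3 libraries gave changes of -0.21 to -0.17, but the call was lost in all 4 of them (FDR = 0.058 to 0.175).

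Per length, the order of the members with DMSO was Junb (891 ± 56.7 CPM per kb; SD, n = 2), Atf3 (423 ± 3.94), Fos (134 ± 5.76), Jun (53.5 ± 1.72), Jund (46.8 ± 6.05), Fosb (36.9 ± 2.20), Fosl2 (22.8 ± 0.98), Batf (7.40 ± 0.578), Fosl1 (6.16 ± 0.407) and Batf3 (4.41 ± 0.407). No neighbours in this order overlapped between the 2 DMSO libraries. With GSI the 5 members at the top kept their order, but Jun (57.2 ± 7.32 CPM per kb) and Jund (56.6 ± 6.10) overlapped. Batf (11.7 ± 1.01 CPM per kb) then stood above Fosl2 (8.24 ± 0.874) and Fosb (7.95 ± 1.10), which overlapped with each other. Fosl1 and Batf3 remained the lowest by the longest transcript. By the length of all annotated exons, Fosl1 stood above Batf with DMSO and above Fosb with GSI. Summed over the 10 members, the level was 1581 and 1672 CPM per kb with DMSO, against 1491 and 1398 CPM per kb with GSI. Junb and Atf3 together outweighed the rest, so that the decreases of Fosb and Fosl2 touched a small part of the total: these genes held 2.24% and 2.30%, and 1.48% and 1.32%, of it with DMSO, against 0.481% and 0.624%, and 0.511% and 0.634%, with GSI.

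Several members are neighbours in the genome. Fos, the related bZIP gene Jdp2 and Batf follow each other on chromosome 12, with gaps of 121.8 and 46.8 kb and with 0 annotated genes of the table between them. Across this stretch the log2 fold changes were -0.19 for Fos, 0.13 for Jdp2 (FDR = 0.161 in edgeR's quasi-likelihood test) and 0.66 for Batf. Batf3 and Atf3 lie 61.4 kb apart on chromosome 1 with 0 tested genes between them, and their log2 fold changes were -0.60 and -0.19. The 3′ untranslated regions of these genes differ in ATTTA, the core of the AU-rich elements by which early mRNAs are degraded. Per kb, the density was highest in Fos (4.91 copies), Junb (4.12) and Jun (3.24), followed by Atf3 (2.53), Jund (1.88), Fosl2 (1.72), Fosl1 (1.57) and Fosb (0.434), and Batf and Batf3 had 0 copies. The median over 11257 tested genes with a region of at least 100 bases was 1.36 per kb. Fosl2 had the most copies (8) in the longest region (4653 bases), and Fosb had 1 in 2302 bases.

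Among tested genes averaging at least 10 CPM, those closest to Fosb in their centred log2 CPM over the 4 libraries were Thbs1, which encodes a matrix glycoprotein (log2 fold change -2.23, root mean square difference 0.0831), Abca1, a cholesterol exporter (-2.28, 0.0866), and D8Ertd82e (-2.01, 0.129). Closest to Batf were Mertk, a receptor for the uptake of dead cells (0.64, 0.0155), Olfr56 (0.60, 0.0165) and Vegfb (0.62, 0.0255). With 4 libraries many genes are close by this measure.

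Genes that carry signals to AP-1 were read from lists. The counts of these and the following lists stand against the 40.8% called, 21.9% lower and 19.0% higher, over all tested genes. Of 33 genes of the MAP kinase cascade, 13 were lower, 4 higher and 16 not called, with a median log2 fold change of -0.079. The largest decreases were those of Map3k5, the stress kinase ASK1 (-0.74), Rps6ka5, the CREB kinase MSK1 (-0.72), and Rps6ka3 (-0.63), and the largest increase was that of the weakly expressed p38β gene Mapk11 (1.09), from 29 and 41 to 78 and 68 counts. The list of SRF, ternary complex and CREB factors also holds Mef2a, Mef2c, Mef2d, Crebbp and Ep300. It had 10 of 16 genes lower, 1 higher and 5 not called, with a median of -0.31. The part of these genes in the changes of the members was not tested. Srf itself fell from 47.9 and 49.3 CPM to 33.6 and 33.1 CPM (-0.54), and Mef2c (-1.13) and Mef2a (-0.57) had the largest decreases, while Elk4 rose (0.31). The values of these lists are mRNA levels, from which the activity of the kinases cannot be read. In its Western blots after LPS/ICs, the study reported no effect of GSI on the phosphorylated MAP kinases (p38, Erk and JNK) or on phosphorylated Akt. The legend of those blots gives the shorter incubation with GSI.

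DUSP phosphatases switch MAP kinases off, and some of them, such as Dusp1, are known as immediate early genes. Of 10 DUSP genes, 6 were lower, 0 higher and 4 not called, with a median log2 fold change of -0.37. Dusp2 fell from 302 and 282 CPM to 105 and 92.4 CPM (-1.57), Dusp5 by 0.91 and Dusp1 by 0.73 on the log2 scale. Among 33 tested immediate early genes outside AP-1, 13 were lower, 7 higher and 13 not called, with a median of -0.072. The nuclear receptor genes Nr4a3 (-2.62) and Nr4a1 (-1.46) and Id1 (-2.24) fell most. Egr1, which like Fos is driven by SRF, rose from 733 and 761 CPM to 1250 and 1077 CPM (0.64), and Klf2 (0.78) and Ier3 (0.59) rose as well.

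Of 27 tested other bZIP factors, 5 were lower, 8 higher and 14 not called, with a median of 0.10. The largest increases were those of Atf5 (1.31), Ddit3, which encodes CHOP (1.19), and Atf4, the factor of the integrated stress response (0.90), and the largest called decreases those of Cebpa (-0.52), Bach1 (-0.51) and Atf6 (-0.51). The decrease of Cebpa was smaller and not called without DMSO replicate 2 (-0.28, FDR = 0.105 in edgeR's quasi-likelihood test). Of 30 tested genes that AP-1 is known to regulate, 12 were lower, 5 higher and 13 not called, with a median of -0.17. The cytokine genes Csf2 (-2.07) and Il1b (-1.71) and the growth factor gene Areg (-1.47) fell most. Csf2 had few counts (184 and 181 in the DMSO libraries, 57 and 29 in the GSI libraries). Il1b and Nr4a3 were among the genes that the study picked from these libraries, so their decreases are not independent evidence. The study also found both lower with GSI by qPCR. In its macrophages lacking Rbpj, Il1b was lower and Nr4a3 showed no difference. Mmp14, a membrane protease, rose from 4.81 and 5.75 CPM to 21.7 and 21.3 CPM (2.02), followed by Mt2 (1.07) and Hmox1 (0.98). Other members of that list differed little: Tnf had a log2 fold change of 0.084 and Il6 one of 0.043, and neither was called.

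**Figure D4:**
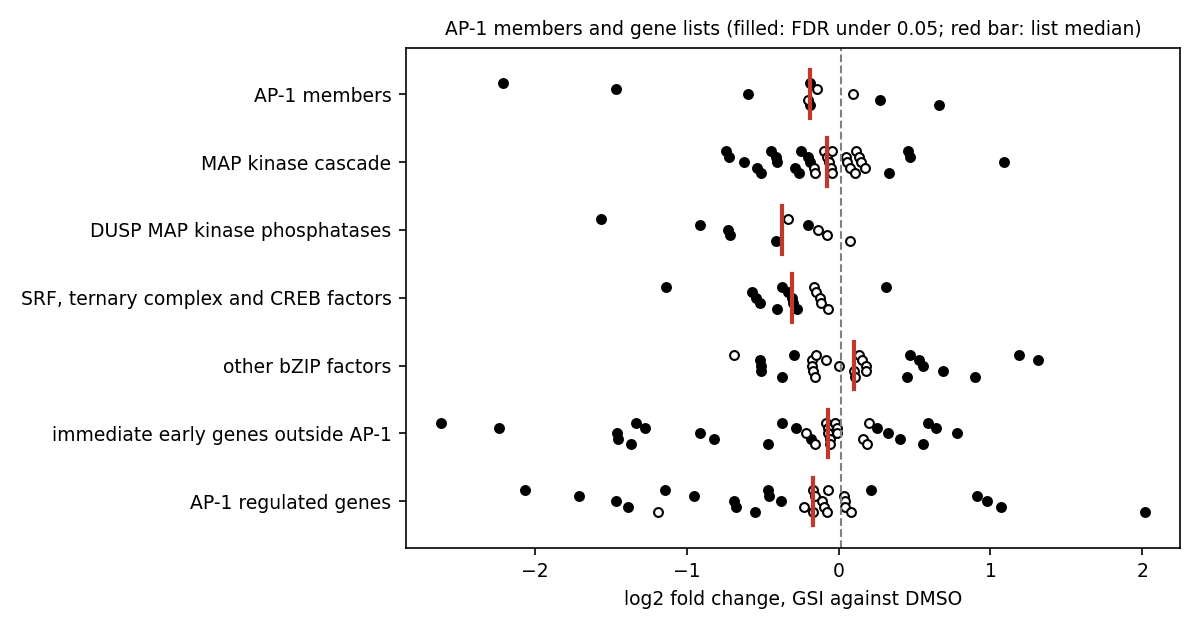
Log2 fold change of each tested gene among the AP-1 members and in 6 gene lists. Filled points have an FDR under 0.05, red bars are list medians, and the dashed line is the median of all tested genes (0.015). Every list except the DUSP phosphatases holds called genes on both sides.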

How the data were processed

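RNA-seq of 2 DMSO and 2 GSI replicates was analysed. Per the study's methods, strand-specific poly(A) libraries were sequenced, trimmed with Trimmomatic, aligned to mm10 with STAR (2.5.0a per the submitters' processing notes, which also name mm9 and Picard) and counted with HTSeq; the strand setting is not given in the sources used here. The authors deposited raw counts per gene in 16 columns, without normalization. The 4 columns of a replicate, taken as runs, were summed, since their differences were those of counting (chi-square per degree of freedom 1.01 to 1.03). The test was edgeR 4.0.16 in R 4.3.3 (filterByExpr, TMM, glmQLFit and glmQLFTest, group as the only factor), with Benjamini-Hochberg adjustment over 13211 genes. SE is the size of the log2 fold change divided by the square root of F. Levels per kb used the longest transcript of GENCODE M21 (GRCm38), which held 98.8% of the gene IDs. Errors cover counting and replicate spread only, and PCR copies were not marked.

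The members and gene lists were chosen with earlier results of these data known. Named were all members, from each list at most 3 called genes per direction by size of change with a mean of at least 1 CPM, the Notch targets, the 3 nearest profiles of the members with the largest decrease and the largest increase, overlapping genes and leading markers. Jdp2, Tnf, Il6, Xcr1, Zbtb46, Flt3, Siglech and Cd209a fall outside this rule and were chosen after their values were seen. Scripts were tested on simulated data. The alternatives were RLE or no scaling factors, no filter or at least 10 counts in every library, DESeq2 1.42.0, the replicate block, 16 separate runs, glmTreat against 1.5-fold, each library left out, and exon-union lengths.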

Additional observations from a re-analysis of the deposited data

How the results depend on the processing

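Refits covered 41 genes, the 10 members and the list genes chosen by size of change, and not the other genes named (nearest profiles, markers, Jdp2, Tnf and Il6). Of their 492 log2 fold changes, 453 kept their direction and their side of the threshold, and 1 reversed: Jun was -0.041 without GSI replicate 1, and 0.22 without GSI replicate 2. Against a 1.5-fold change (glmTreat), 2 members were lower (Fosb and Fosl2) and 0 higher, 2 in all, and the calls were 0 in the MAP kinase cascade, 2 DUSP genes, 1 SRF, ternary complex or CREB factor, 3 other bZIP factors, 7 immediate early genes, 10 AP-1 regulated genes, and 600 lower and 239 higher genes overall. With 16 runs as separate samples, which are not replicates, 22 other bZIP factors and 3896 higher genes were called, and 178 genes passed both thresholds, against 154 with at least 10 counts in every library and 385 in the main test.

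When 1 library was left out, so that the lone library of a group was assumed to vary like the other group, 3 to 4 members were lower, 1 to 3 higher and 4 to 7 called in all. The ranges were 13 to 15 for the MAP kinase cascade, 5 to 6 for the DUSP genes, 9 to 10 for SRF, ternary complex and CREB factors, 13 to 17 for other bZIP factors, 17 to 19 for immediate early genes and 16 to 20 for AP-1 regulated genes. Over all genes they were 2279 to 2694 lower, 1752 to 2288 higher and 375 to 416 past both thresholds. The cause was not tested.

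The deviations of DMSO replicate 1 and GSI replicate 1 from their group means correlated at 0.155 over 13211 genes. With 2 pairs the numbers were not taken to pair the libraries. The replicate block called 3314 lower and 3130 higher genes, 389 past both thresholds, and 5 members lower and 2 higher as before. DESeq2 called 5 members lower and 2 higher. The median log2 fold change of all genes was 0.0146 with TMM and 0.0077 to 0.0082 with the other scalings. With exon-union lengths, Fosl1 stood above Batf with DMSO and above Fosb with GSI, and the level of Fosb was 22.3 CPM per kb with DMSO and 4.82 with GSI. Fosl1, Batf and Batf3, with the fewest counts, had the largest SEs.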
